A study of Rattus norvegicus with 9 samples.

Results

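The genes described here are those for the proteins of the cytosolic ribosome, taken as every line of the deposited gene table whose symbol begins with Rpl or Rps and a digit or with Rplp, leaving out the Rps6k kinases and Rps19bp1. The rule found 86 of 18629 genes, 51 of the large subunit and 35 of the small subunit, in primary neonatal cardiomyocytes of Sprague-Dawley rats 1 to 2 days old. Messenger RNA was measured in 9 libraries, 3 each from cells given an adenovirus for wild-type Yap1 (Ad-Yap1 WT), an adenovirus for a short hairpin against Yap1 (Ad-Yap1 shRNA) or an adenovirus for green fluorescent protein (Ad-GFP). Every group, the controls too, was held for 14 h at 1 g/L glucose in medium with 1% fetal serum, and for the next 48 h at 33 mM glucose together with 100 nM insulin, in a study of diabetic cardiomyopathy. The Hippo pathway acts through Yap1, which drives transcription with TEAD factors. The labels name no control hairpin, no viral dose and no species for the Yap1 insert. They do not say whether the replicates came from separate isolations, so the p-values measure the spread between these samples, which may be technical. Cells with Ad-GFP but no glucose and insulin were not analysed here.

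A ribosome is built from ribosomal RNA and a fixed set of proteins, and the genes for these proteins are among the most highly expressed of a cell. Their messages are short and most begin with a C followed by an unbroken run of pyrimidines, the 5′ terminal oligopyrimidine (TOP) tract. Through that tract the kinase complex mTORC1, which insulin and amino acids activate, and the RNA-binding protein Larp1 set their translation and stability. In the heart, growth of cardiomyocytes goes with the making of more ribosomes.

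The start of 65 of the 86 genes could be read from RefSeq's rat promoter table (build GRCr8), matched by gene identifier. The deposited counts were made on another build, rn6 per the submitters' processing notes. The windows below run from 15 bases before the annotated start to 15 bases from the start onward, 5′ to 3′ on the transcribed strand. Capitals mark a C followed by at least 4 C or T that starts inside the window. The first 5 are shown for the genes with the clearest changes below, and the other 6 for the paralog pairs in which the usual gene has the run and its second gene does not.
Rps2 (chr10:14251833-14251862, plus strand): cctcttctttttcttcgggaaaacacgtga
Rpl4 (chr8:73566462-73566491, plus strand): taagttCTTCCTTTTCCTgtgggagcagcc
Rpl7l1 (chr9:21695703-21695732, plus strand): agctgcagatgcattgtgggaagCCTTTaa
Rpl34 (chr2:221962269-221962298, minus strand): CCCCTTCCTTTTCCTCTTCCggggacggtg
Rps4x (chrX:71342907-71342936, minus strand): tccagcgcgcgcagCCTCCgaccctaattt
Rps27 (chr2:177964592-177964621, minus strand): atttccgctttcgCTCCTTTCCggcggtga
Rps27l (chr8:76443643-76443672, plus strand): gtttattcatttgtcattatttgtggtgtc
Rpl22 (chr5:168117946-168117975, plus strand): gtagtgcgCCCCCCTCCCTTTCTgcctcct
Rpl22l1 (chr2:113683181-113683210, plus strand): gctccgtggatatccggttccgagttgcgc
Rpl10 (chrX:157205835-157205864, plus strand): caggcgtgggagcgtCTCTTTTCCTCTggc
Rpl10l (chr6:90281968-90281997, minus strand): tttggtctccattttgctgctggcggtgag

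Such a run stood in 47 of the 65 windows (72.3%), against 36.8% of the 33469 windows in the whole table. CTTTCC on the transcribed strand stood in 21.5% of the members' windows and 1.24% of all windows, and CTCTTT in 23.1% and 1.14%. Over the whole 300 bases of each promoter, on both strands, CCGGAAG stood in 30.8% of members and 8.75% of all promoters, GGGCGG in 55.4% and 33.1%, TATAAA in 10.8% and 14.2%, and GGAATG, the core letters bound by the TEAD partners of Yap1, in 7.69% and 14.2%. These letters and the window were chosen after looking at the members' sequences, the motifs overlap the run, and a match is only a match of letters. The window of Rps2 opens inside a pyrimidine stretch that began before it, so it is not counted among the 47. The windows of Rpl7a, Rplp2 and Rps3 also open with a pyrimidine stretch and are not counted.

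The libraries differed in depth by group, with 10960051 to 11497104 assigned reads for Ad-Yap1 WT, 6103221 to 6357403 for Ad-Yap1 shRNA and 14868180 to 15368473 for Ad-GFP. Yap1 itself stood at 559 to 812 CPM (normalised counts for every 1000000 assigned reads) in Ad-Yap1 WT, 95.3 to 96.0 in Ad-Yap1 shRNA and 189.8 to 198 in Ad-GFP libraries, in the direction that the labels give. The summed level of 10 cardiomyocyte marker genes was 4839 to 7607 CPM in Ad-Yap1 WT, 1823 to 1939 in Ad-Yap1 shRNA and 28443 to 29379 in Ad-GFP libraries. All 10 markers were lower in both Yap1 groups than in Ad-GFP, and none was at 0. The 10 fibroblast markers summed to 12612 to 17039 in Ad-Yap1 WT, 7881 to 8623 in Ad-Yap1 shRNA and 18949 to 20183 in Ad-GFP libraries. They did not all move alike. At an adjusted p under 0.05 (edgeR) against Ad-GFP, 3 were higher and 6 lower in Ad-Yap1 WT, and 1 higher and 9 lower in Ad-Yap1 shRNA. Markers of smooth muscle summed to 5542 to 7212 in Ad-Yap1 WT, 4465 to 4989.9 in Ad-Yap1 shRNA and 11123 to 11764 in Ad-GFP. Those of endothelium summed to 61.1 to 66.7 in Ad-Yap1 WT, 71.8 to 76.0 in Ad-Yap1 shRNA and 46.1 to 47.3 in Ad-GFP, and those of macrophages to 120.4 to 122 in Ad-Yap1 WT, 42.4 to 59.0 in Ad-Yap1 shRNA and 94.5 to 115 in Ad-GFP. By the same test, of 8 markers each in Ad-Yap1 WT, 7 of smooth muscle were lower, 4 of endothelium higher and 1 lower, and 2 of macrophages higher and 1 lower. In Ad-Yap1 shRNA these were 8 lower, 7 higher and 1 lower, and 1 higher and 4 lower. Of all genes, 32.0% were higher and 31.8% lower in Ad-Yap1 WT, and 39.2% and 39.1% in Ad-Yap1 shRNA. Fewer cells of a type and less RNA per cell cannot be told apart in such bulk samples, and the part of either shift in the values below was not tested.

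As a share of all transcripts, measured in TPM (transcripts for every 1000000 transcripts, which corrects for their length), the 86 genes made up 22.8% ± 0.34 in Ad-Yap1 WT, 20.2% ± 0.67 in Ad-Yap1 shRNA and 20.8% ± 0.49 in Ad-GFP libraries (SD, n = 3 each). The single values were 22.4%, 23.0% and 23.0% in Ad-Yap1 WT, 19.4%, 20.5% and 20.7% in Ad-Yap1 shRNA, and 21.2%, 21.0% and 20.2% in Ad-GFP. The Ad-Yap1 WT libraries stood above all others, while the ranges of Ad-Yap1 shRNA and Ad-GFP overlapped. Since the messages are short, their share of the assigned reads was smaller, at 5.87% ± 0.18 in Ad-Yap1 WT, 4.95% ± 0.24 in Ad-Yap1 shRNA and 5.39% ± 0.09 in Ad-GFP libraries, and on that scale no pair of groups overlapped.

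**Figure D1:**
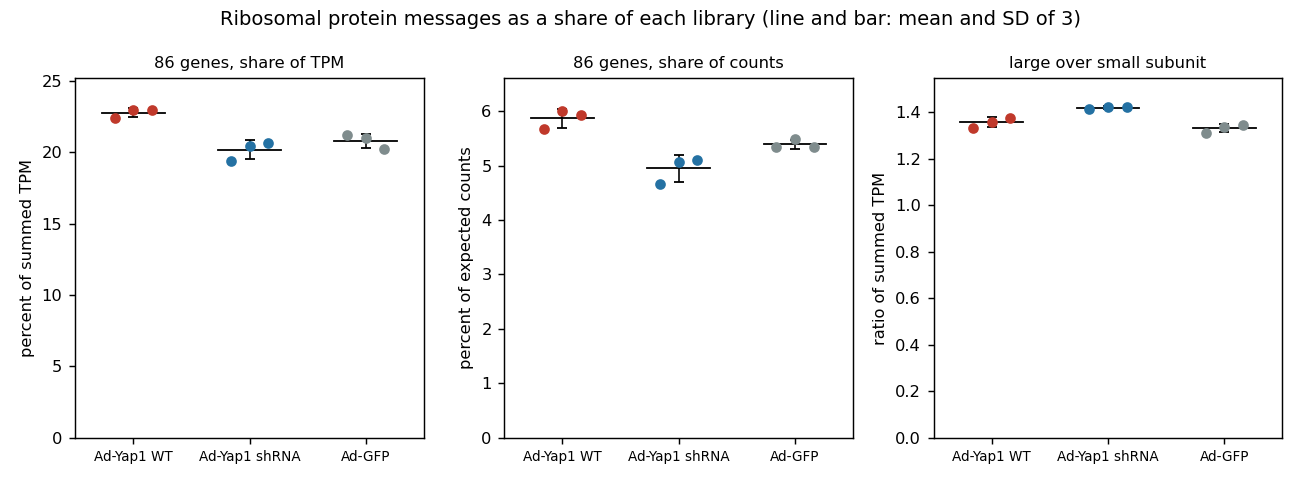
Summed share of the 86 ribosomal protein genes in percent of TPM (left) and in percent of expected counts (middle), and the ratio of large to small subunit summed TPM (right), one point per library, with the mean and SD of 3 libraries. Ad-Yap1 WT is highest in both shares, and Ad-Yap1 shRNA is highest in the ratio, at 1.41 to 1.42.

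The levels of the single genes spread widely, on the TPM scale that allows genes to be compared. The highest 3 over the 9 libraries were Rps29, Rpl38 and Rps27, all short messages. Rps29 averaged 9067 ± 388 TPM in Ad-Yap1 WT, 6158 ± 401 in Ad-Yap1 shRNA and 9887 ± 915 in Ad-GFP libraries. The lowest 3 among the 85 genes that passed the count filter were Rps4y2, Rpl10l and Rpl39l. Rpl39l averaged 18.4 ± 3.61 TPM in Ad-Yap1 WT, 19.9 ± 5.25 in Ad-Yap1 shRNA and 12.9 ± 1.34 in Ad-GFP. It did not pass the count test in any comparison, but on log2(TPM + 1) it was called higher in Ad-Yap1 WT (0.47, adjusted p = 0.0437, limma) and Ad-Yap1 shRNA (0.56, adjusted p = 0.0158) than in Ad-GFP, and with the length trend removed these values were 0.65 (adjusted p = 0.0203) and 1.04 (adjusted p = 0.00168). On log2(TPM + 1) the median of all genes was 0.14 in Ad-Yap1 WT and 0.16 in Ad-Yap1 shRNA. Rpl3l, the striated-muscle counterpart of Rpl3 that the adult heart expresses, did not pass the filter, with 0, 1 and 2 counts in Ad-Yap1 WT, 1, 1 and 0 in Ad-Yap1 shRNA and 0 in each Ad-GFP library. Rpl3 itself averaged 1488 ± 23.5 TPM in Ad-Yap1 WT, 1363 ± 31.5 in Ad-Yap1 shRNA and 1375 ± 10.8 in Ad-GFP libraries.

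Most of these genes did not pass the count test when Yap1 was overexpressed. In Ad-Yap1 WT against Ad-GFP, 6 of 85 were higher and 11 lower at an adjusted p under 0.05 (edgeR's quasi-likelihood test with Benjamini-Hochberg adjustment over 13708 genes), against 32.0% of all genes tested called higher and 31.8% called lower. The other 68 did not pass the test. Called members were thus 20.0% of those tested, below the 63.8% of all genes, and for 29 members (34.1%) the libraries of the groups did not overlap, against 70.7% of all genes. The members' median log2 fold change was -0.03, beside 0.00 over all genes, and it turned to 0.14 on the log2(TPM + 1) scale, where the median of all genes was 0.14 too, and to 0.24 when each library's trend with transcript length was removed. On log2(TPM + 1), 42 members were called higher and 3 lower (all genes 5419 and 2894). With the length trend removed, 67 were higher and 2 lower (all genes 4758 and 4234), so most members were called there.

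More of them passed it with the hairpin, in a direction that depended on how length was treated. In Ad-Yap1 shRNA against Ad-GFP, 8 were higher and 45 lower, against 39.2% and 39.1% of all genes, with 53 members (62.4%) whose libraries did not overlap, against 80.2% of all genes. The members' median was -0.21 and that of all genes -0.01. Yet on log2(TPM + 1) 31 members were higher and 32 lower with a median of 0.01 (all genes 6294 and 4242, median 0.16). With the length trend removed 58 were higher and 5 lower with a median of 0.28 (all genes 5503 and 5284, median 0.00). Of the 45 lower members, 32 changed sign in that last fit. In the count fit most changes were small: 2 of 85 members, Rpl7l1 and Rps18l1, changed at least 2-fold in fitted value, against 36.3% of all genes.

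Between the Yap1 groups, in Ad-Yap1 WT against Ad-Yap1 shRNA, 44 members were higher and 8 lower, against 31.2% and 31.3% of all genes, and 54 (63.5%) did not overlap, against 66.1% of all genes. The median was 0.19 (all genes 0.04). On log2(TPM + 1), 41 were higher and 11 lower (all genes 3828 and 4541, median -0.01). With the length trend removed the balance turned, to 14 higher and 30 lower with a median of -0.07 (all genes 4427 and 4205, median 0.05). The comparisons with Ad-GFP share their 3 control libraries, so their values are not independent of each other. Called higher in both were Rps2, Rpl4 and Rpl7l1, called lower in both were 11 members, 34 were called lower and 5 higher in the Ad-Yap1 shRNA comparison alone, 3 were called higher in the Ad-Yap1 WT comparison alone, and 29 were called in neither. No member was called in opposite directions in them. The shares of all genes with such joint calls are not given here, so these joint counts have no background beside them.

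**Figure D2:**
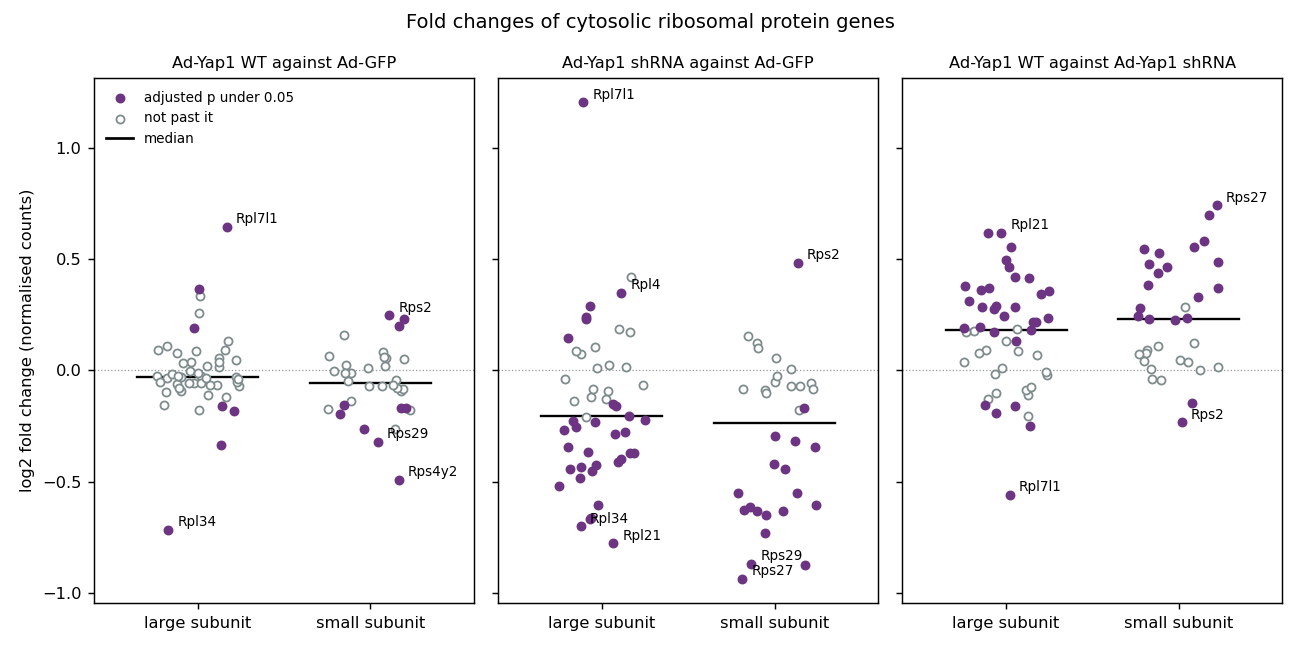
Log2 fold change of normalised counts (vertical axis) for 84 ribosomal protein genes in the 3 comparisons, large subunit left and small subunit right in each panel, with filled points for an adjusted p under 0.05 and bars for the medians of the genes drawn. Most points lie below 0 in Ad-Yap1 shRNA against Ad-GFP, where the members' median is -0.21, but it is 0.28 once the length trend is removed. Rps18l1, whose counts jumped between replicates, is not drawn.

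Rps2, Rpl4 and Rpl7l1 were called higher in both Yap1 groups than in Ad-GFP under all 21 settings tried. Rps2, a small-subunit protein near the entry of the message channel, had 2947, 3247 and 3211 CPM in Ad-Yap1 WT, 3606, 3774 and 3684 in Ad-Yap1 shRNA and 2475, 2751 and 2694 in Ad-GFP libraries. The groups did not overlap, and Ad-Yap1 shRNA stood highest. Its log2 fold change was 0.25 ± 0.06 (SE; adjusted p = 0.00291, edgeR) in Ad-Yap1 WT and 0.48 ± 0.06 (adjusted p = 7.32e-06) in Ad-Yap1 shRNA against Ad-GFP. In the deposited table Rps2 lies on the plus strand of chromosome 10, from 14088171 to 14090020.

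Rpl4, which reaches into the exit tunnel of the large subunit, had 1345, 1448 and 1423 CPM in Ad-Yap1 WT, 1486, 1586 and 1635 in Ad-Yap1 shRNA and 1209, 1237 and 1254 in Ad-GFP libraries. On the log2 scale it rose by 0.19 ± 0.05 in Ad-Yap1 WT (adjusted p = 0.00896, edgeR) and 0.35 ± 0.06 in Ad-Yap1 shRNA (adjusted p = 6.69e-05). All 6 libraries with a Yap1 virus lay above the 3 with Ad-GFP. Rpl6, another large-subunit protein named here after its values were seen, rose in Ad-Yap1 shRNA by 0.29 ± 0.06 (adjusted p = 0.000781, edgeR), a call made under all 21 settings, and had 0.13 ± 0.06 (adjusted p = 0.0767) in Ad-Yap1 WT.

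Rpl7l1, a paralog of Rpl7 that works in the nucleolus on early large-subunit particles, showed the largest change in Ad-Yap1 shRNA against Ad-GFP of any member drawn in the plot of fold changes. It had 167, 189.9 and 184 CPM in Ad-Yap1 WT, 267, 262 and 268 in Ad-Yap1 shRNA and 111, 122 and 113 in Ad-GFP libraries. The 3 groups were fully apart. The log2 fold change was 0.65 ± 0.06 (adjusted p = 8.44e-07, edgeR) in Ad-Yap1 WT and 1.20 ± 0.06 (adjusted p = 8.48e-10) in Ad-Yap1 shRNA against Ad-GFP, and -0.56 ± 0.06 (adjusted p = 3.28e-06) between Ad-Yap1 WT and Ad-Yap1 shRNA. These calls were made under all 21 settings. Its message is also the longest of the family, at 1.02 times the median length of all genes, where the median member has 0.134 times that length.

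In the count fit, Rpl8, Rpl13 and Rpl19, all of the large subunit, were called higher in Ad-Yap1 shRNA (the last 2 named after their values were seen) and not in Ad-Yap1 WT against Ad-GFP. Rpl8 had 722, 783 and 716 CPM in Ad-Yap1 WT, 854, 872 and 918 in Ad-Yap1 shRNA and 734, 755 and 747 in Ad-GFP libraries. The Ad-Yap1 shRNA libraries stood above the 6 others, which overlapped. The change was 0.24 ± 0.05 (adjusted p = 0.00115, edgeR) against Ad-GFP, and with upper quartile scaling it was 0.10 (adjusted p = 0.11). On log2(TPM + 1), where the median of all genes was 0.14, each was called higher in Ad-Yap1 WT too. Rpl8 had 0.16 (adjusted p = 0.0176, limma), Rpl13 0.21 (adjusted p = 0.00438) and Rpl19 0.21 (adjusted p = 0.00293). With the length trend removed these values were 0.19 (adjusted p = 0.00459, edgeR), 0.28 (adjusted p = 0.00018) and 0.27 (adjusted p = 0.000167). The call of Rpl19 in Ad-Yap1 shRNA was made under 15 of the 21 settings.

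Rpl34, of the large subunit, was lower in both Yap1 groups in the count fit. It had 275, 293 and 296 CPM in Ad-Yap1 WT, 255, 299 and 319.5 in Ad-Yap1 shRNA and 500.0, 467 and 454 in Ad-GFP libraries. The Yap1 groups overlapped each other and lay wholly below Ad-GFP. The log2 fold change was -0.72 ± 0.07 (adjusted p = 2.59e-06, edgeR) in Ad-Yap1 WT, a call made under all 21 settings, and -0.70 ± 0.08 (adjusted p = 1.63e-06) in Ad-Yap1 shRNA. With the length trend removed these values were -0.38 (adjusted p = 0.000443, edgeR) in Ad-Yap1 WT and -0.03 (adjusted p = 0.755) in Ad-Yap1 shRNA.

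The deepest falls in Ad-Yap1 shRNA belonged to short small-subunit messages. Rps27, a zinc-finger protein of the small subunit, had 495, 478 and 447 CPM in Ad-Yap1 WT, 244, 292 and 313 in Ad-Yap1 shRNA and 575, 531 and 521 in Ad-GFP libraries. The change was -0.94 ± 0.08 (adjusted p = 2.2e-07, edgeR) in Ad-Yap1 shRNA against Ad-GFP, but -0.10 (adjusted p = 0.276) with the length trend removed. Between Ad-Yap1 WT and Ad-Yap1 shRNA it was 0.74 ± 0.08 (adjusted p = 5.32e-06, edgeR), a call made under all 21 settings. Rps29, which also carries a zinc finger, had 481, 438 and 448 CPM in Ad-Yap1 WT, 280.1, 326 and 329 in Ad-Yap1 shRNA and 609, 562 and 539 in Ad-GFP libraries. For both genes the 3 groups did not overlap, with Ad-Yap1 shRNA lowest and Ad-GFP highest. Rps29 fell by 0.87 on the log2 scale in Ad-Yap1 shRNA (adjusted p = 1.23e-07, edgeR), and the value turned to 0.03 with the length trend removed. Rps26 fell by 0.88 (adjusted p = 1.06e-06, edgeR), with -0.18 (adjusted p = 0.0771) without the length trend, and its line holds a minority of the reads of S26, since 87.6% of the summed counts sat on lines described as copies. When its copies were added the value was -0.60 (adjusted p = 1.2e-05, edgeR).

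Falls in Ad-Yap1 shRNA that were called under all 21 settings, the length correction included, were those of Rpl21, Rpl27a, Rpl36a, Rps4x and Rps16, of which Rpl27a and Rps16 are named after their values were seen. Rpl21, of the large subunit, had 889, 874 and 889.7 CPM in Ad-Yap1 WT, 514, 621 and 594 in Ad-Yap1 shRNA and 1002, 978 and 985 in Ad-GFP libraries. The Ad-Yap1 shRNA libraries lay wholly below the 6 others. The change was -0.78 ± 0.07 (adjusted p = 1.32e-07, edgeR), and -0.20 (adjusted p = 0.00219) with the length trend removed. Rps4x, the X-linked form of S4, had 935, 881 and 885 CPM in Ad-Yap1 WT, 601, 679.7 and 713 in Ad-Yap1 shRNA and 1043, 1008 and 986 in Ad-GFP libraries, a change of -0.61 ± 0.06 (adjusted p = 1.47e-06, edgeR) in Ad-Yap1 shRNA and -0.29 (adjusted p = 0.000433) without the length trend. Rps16 fell by 0.61 and Rpl36a by 0.67 on the log2 scale, and with the length trend removed these values were -0.23 for Rps16 and -0.18 for Rpl36a. Rpl41, the smallest protein of the ribosome, had 797, 734 and 782 CPM in Ad-Yap1 WT, 466, 531 and 513 in Ad-Yap1 shRNA and 811, 804 and 783 in Ad-GFP libraries, with -0.67 ± 0.06 (adjusted p = 2.4e-07, edgeR) in Ad-Yap1 shRNA but 0.01 (adjusted p = 0.809) without the length trend.

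**Figure D3:**
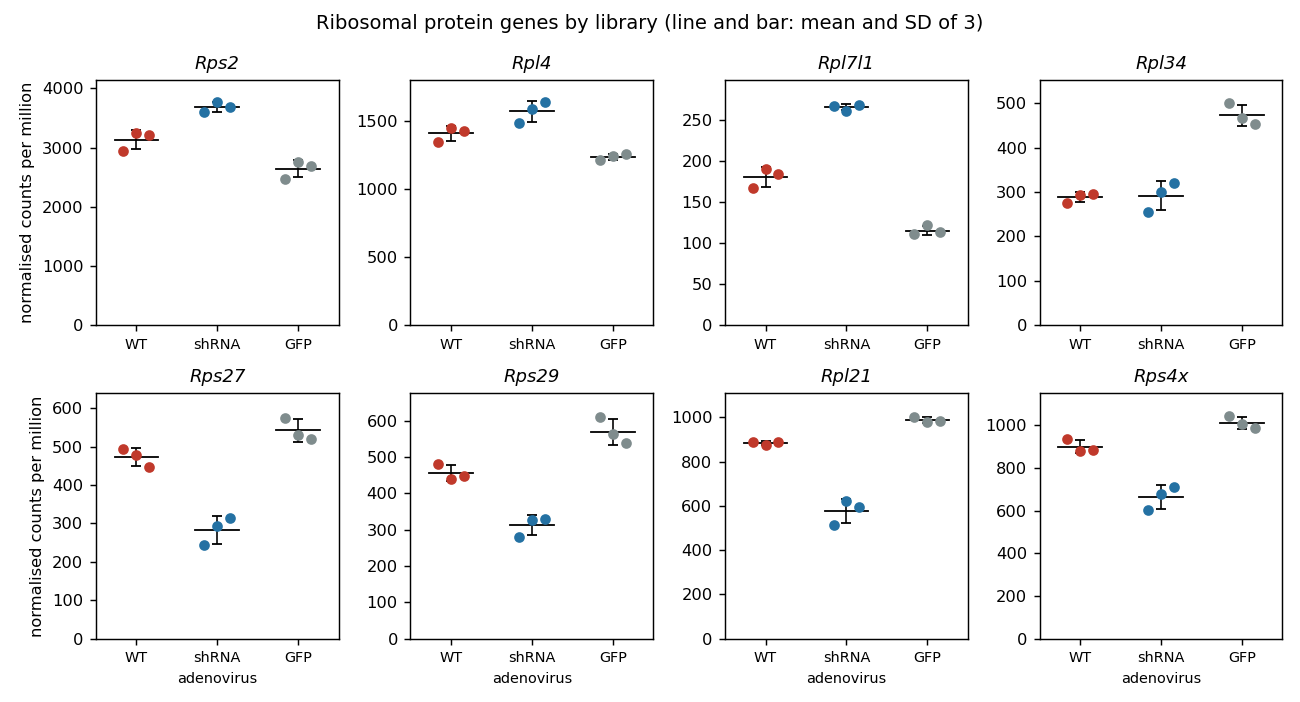
CPM, normalised counts for every 1000000 assigned reads (vertical axis, from 0) of 8 ribosomal protein genes in each library, with the mean and SD of 3 libraries per adenovirus. Rps2, Rpl4 and Rpl7l1 stand higher in both Yap1 groups than in Ad-GFP, Rpl34 is lower in both, and Rps27, Rps29, Rpl21 and Rps4x are lowest in Ad-Yap1 shRNA, a fall that turned to 0.03 for Rps29 and shrank to -0.10 for Rps27 with the length trend removed.

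Transcript length moved with these values. The members' median length was 0.134 times that of all genes, and 79 of the 85 tested stood among the shortest 10% of genes. The 1236 other genes of that class had a median log2 fold change of -0.22 in Ad-Yap1 WT and -0.45 in Ad-Yap1 shRNA against Ad-GFP, and 0.29 in Ad-Yap1 WT against Ad-Yap1 shRNA. In the longest 10% these medians were 0.01, 0.11 and -0.10. Among the members, Spearman's rho between length and log2 fold change was 0.25 in Ad-Yap1 WT and 0.39 in Ad-Yap1 shRNA against Ad-GFP, and -0.42 in Ad-Yap1 WT against Ad-Yap1 shRNA (n = 85 genes). Over 13141 genes the same comparisons gave 0.07, 0.11 and -0.15, as a description across genes that share libraries. The members' median in Ad-Yap1 shRNA, -0.21, thus lay above that of the other genes of the shortest 10% and below that of all genes. Removing the length trend also removes any change that short genes share, so the share of length in the members' fall was not tested.

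**Figure D4:**
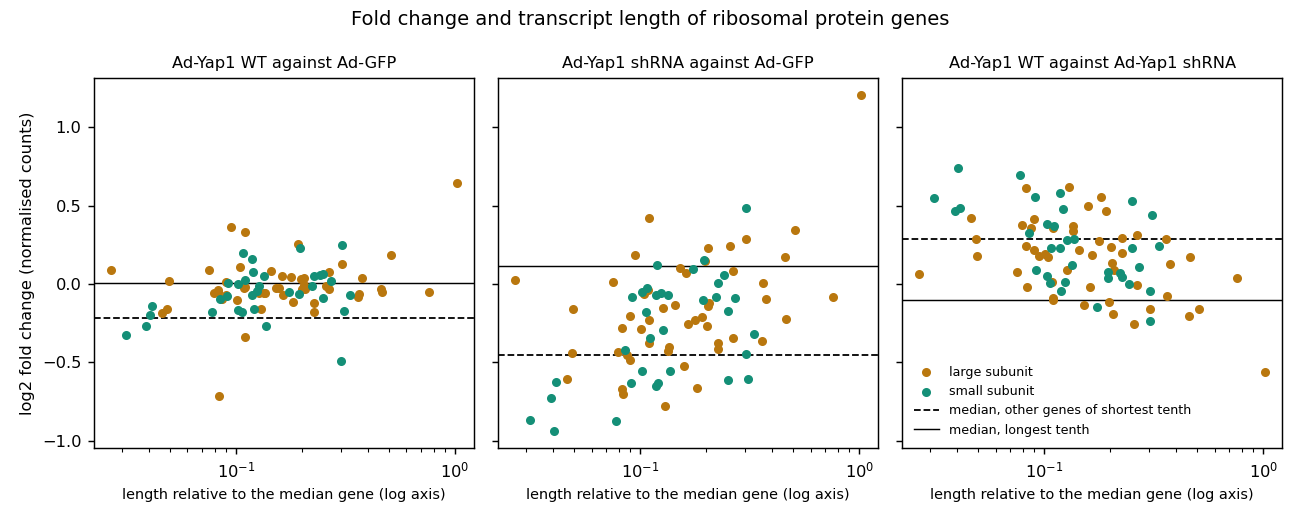
Log2 fold change (vertical axis) against transcript length relative to the median gene (horizontal log axis) for 84 members in the 3 comparisons, with the median of the 1236 other genes of the shortest 10% (dashed, -0.22, -0.45 and 0.29 from left to right) and of the longest 10% (solid). Shorter members lie lower in Ad-Yap1 shRNA against Ad-GFP, and Rpl7l1, the longest, lies highest. Rps18l1 is not drawn.

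The medians of the large and the small subunit lay close to each other in the count fit. Against Ad-GFP, 3 of 50 large-subunit members were higher and 4 lower in Ad-Yap1 WT (median -0.03), and 3 of 35 small-subunit members were higher and 7 lower (median -0.06). In Ad-Yap1 shRNA against Ad-GFP, the large subunit had 6 higher and 27 lower (median -0.21) and the small subunit 2 higher and 18 lower (median -0.18). In Ad-Yap1 WT against Ad-Yap1 shRNA, 26 large-subunit members were higher and 5 lower (median 0.18), and 18 small-subunit members were higher and 3 lower (median 0.23). Of all genes tested, 63.8% were called in Ad-Yap1 WT and 78.3% in Ad-Yap1 shRNA against Ad-GFP, and 62.5% between the Yap1 groups. The subunit counts come before any correction for length. With the length trend removed, 58 members of both subunits together were higher and 5 lower in Ad-Yap1 shRNA against Ad-GFP (all genes 5503 and 5284). No test of the difference between the subunits was run. The ratio of their summed TPM was 1.33, 1.36 and 1.38 in Ad-Yap1 WT, 1.41, 1.42 and 1.42 in Ad-Yap1 shRNA and 1.31, 1.34 and 1.35 in Ad-GFP libraries. Ad-Yap1 shRNA was apart from both other groups, which overlapped, but on expected counts the ratio averaged 1.52 in Ad-Yap1 WT, 1.53 in Ad-Yap1 shRNA and 1.53 in Ad-GFP, and the Ad-Yap1 shRNA and Ad-GFP libraries overlapped. The most abundant messages weigh most in a ratio of summed TPM. Rps29 and Rps27, of the small subunit, averaged 9067 and 7297 TPM in Ad-Yap1 WT and 9887 and 7306 in Ad-GFP. In Ad-Yap1 shRNA they averaged 6158 and 4352. Whether the ratio differs between groups without them was not tested.

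The stalk of the large subunit, which recruits translation factors, is made of Rplp0, Rplp1 and Rplp2. Rplp0 had 2416, 2482 and 2453 CPM in Ad-Yap1 WT, 2173, 2286 and 2258 in Ad-Yap1 shRNA and 2286, 2423 and 2451 in Ad-GFP libraries. Against Ad-GFP it did not pass the count test, with 0.04 ± 0.05 in Ad-Yap1 WT and -0.09 ± 0.05 in Ad-Yap1 shRNA. On log2(TPM + 1), where the median of all genes was 0.14 in Ad-Yap1 WT and 0.16 in Ad-Yap1 shRNA, Rplp0 was called higher in both. It had 0.21 (adjusted p = 0.002, limma) in Ad-Yap1 WT and 0.12 (adjusted p = 0.0271), below that median, in Ad-Yap1 shRNA. With the length trend removed these values were 0.16 (adjusted p = 0.00245, edgeR) and 0.15 (adjusted p = 0.00384). Its difference between Ad-Yap1 WT and Ad-Yap1 shRNA, 0.13 ± 0.05 (adjusted p = 0.0434, edgeR), was lost in 7 of the 9 fits that left out 1 library. Rplp2 ranged from 415 to 432 in Ad-Yap1 WT, 369 to 426 in Ad-Yap1 shRNA and 372 to 424 in Ad-GFP, with no call in the count fit. Against Ad-GFP it was called higher on log2(TPM + 1), with 0.28 (adjusted p = 0.00132, limma) in Ad-Yap1 WT and 0.22 (adjusted p = 0.00444) in Ad-Yap1 shRNA. With the length trend removed these values were 0.45 (adjusted p = 5.91e-06, edgeR) and 0.72 (adjusted p = 3.18e-08). Rplp1 ranged from 412 to 466 in Ad-Yap1 WT, 302 to 505 in Ad-Yap1 shRNA and 324 to 506 in Ad-GFP, with no call in the count fit, and 67.9% of the counts on lines for this protein sat on copies. With the length trend removed Rplp1 had 0.42 (adjusted p = 0.0444, edgeR) in Ad-Yap1 WT and 0.55 (adjusted p = 0.0109) in Ad-Yap1 shRNA against Ad-GFP.

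Among members known for functions outside the ribosome, Rpl5 and Rpl11 form with 5S RNA the particle that binds Mdm2 when ribosome assembly is disturbed. Rpl5 did not pass the count test in any comparison, with -0.06 ± 0.05 in Ad-Yap1 WT and 0.01 ± 0.06 in Ad-Yap1 shRNA against Ad-GFP. In Ad-Yap1 shRNA it was called higher on log2(TPM + 1) (0.22, adjusted p = 0.000805, limma) and with the length trend removed (0.26, adjusted p = 0.000104). On log2(TPM + 1) the median of all genes was 0.14 in Ad-Yap1 WT and 0.16 in Ad-Yap1 shRNA. Rpl11 had 707, 702 and 726 CPM in Ad-Yap1 WT, 563, 639 and 564 in Ad-Yap1 shRNA and 704, 716 and 647 in Ad-GFP libraries. It was lower in Ad-Yap1 shRNA by the count fit, with -0.23 ± 0.06 (adjusted p = 0.00475, edgeR), -0.02 on log2(TPM + 1) and 0.27 with the length trend removed. Rpl13a, part of an interferon-induced silencing complex, had -0.41 ± 0.06 (adjusted p = 1.48e-05, edgeR) in Ad-Yap1 shRNA and 0.01 with the length trend removed. Rps6, whose phosphorylation follows mTORC1 activity, had 1415, 1523 and 1485 CPM in Ad-Yap1 WT, 1374, 1498 and 1549 in Ad-Yap1 shRNA and 1424, 1449.8 and 1376 in Ad-GFP libraries. The 3 groups overlapped and its change was 0.06 ± 0.06 in either Yap1 group in the count fit. It was called higher in Ad-Yap1 WT and Ad-Yap1 shRNA on log2(TPM + 1), with 0.23 (adjusted p = 0.00281, limma) and 0.27 (adjusted p = 0.000636), and with the length trend removed, with 0.26 (adjusted p = 0.000363) and 0.45 (adjusted p = 1.65e-06). Rps27a, made as a fusion with ubiquitin, had -0.32 ± 0.06 (adjusted p = 0.000543, edgeR) in Ad-Yap1 shRNA, but 0.10 (adjusted p = 0.122) when the line of its copy was added.

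For 9 pairs of paralogs the log2 ratio of the second gene to the usual one, on TPM + 1, was compared over the 3 groups. An exact permutation test over every arrangement of the 9 libraries into groups of 3, adjusted over the 9 pairs, can go no lower than p = 0.00357 before adjustment, and 6 pairs passed. Rpl7l1 over Rpl7 was -3.79 ± 0.04 in Ad-Yap1 WT, -2.91 ± 0.15 in Ad-Yap1 shRNA and -4.45 ± 0.03 in Ad-GFP libraries (SD, n = 3 each; adjusted exact permutation p = 0.00804). Rpl7l1 thus made up 6.68% of the pair in Ad-Yap1 WT, 11.7% in Ad-Yap1 shRNA and 4.30% in Ad-GFP. Rps27l, a p53-inducible paralog of Rps27, gave -4.66 ± 0.17 in Ad-Yap1 WT, -3.95 ± 0.08 in Ad-Yap1 shRNA and -5.06 ± 0.08 in Ad-GFP (adjusted exact permutation p = 0.00804). It had 82.1, 98.1 and 94.6 CPM in Ad-Yap1 WT, 77.7, 92.3 and 90.3 in Ad-Yap1 shRNA and 78.7, 77.9 and 77.5 in Ad-GFP libraries. The log2 fold change of Rps27l itself against Ad-GFP was 0.23 ± 0.07 (adjusted p = 0.0158, edgeR) in Ad-Yap1 WT, a call lost without replicate 2 or 3 of that group (adjusted p = 0.0655 and 0.0636), and 0.15 ± 0.08 (adjusted p = 0.0909) in Ad-Yap1 shRNA. On log2(TPM + 1), the scale of the ratio, the median of all genes was 0.16 in Ad-Yap1 shRNA, and Rps27l was called higher there by 0.36 (adjusted p = 0.000525, limma). With the length trend removed that value was 0.62 (adjusted p = 3.07e-06, edgeR).

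Rpl36al and Rpl36a came closest to equal shares. Rpl36al made up 42.3% ± 0.29 of the pair in Ad-Yap1 WT, 53.1% ± 1.78 in Ad-Yap1 shRNA and 46.0% ± 1.83 in Ad-GFP libraries, and the log2 ratios were -0.45 ± 0.02 in Ad-Yap1 WT, 0.18 ± 0.10 in Ad-Yap1 shRNA and -0.23 ± 0.11 in Ad-GFP (adjusted exact permutation p = 0.00804). No pair of groups overlapped. Rpl36al was lower in both Yap1 groups than in Ad-GFP in the count fit, with -0.33 ± 0.06 (adjusted p = 0.000255, edgeR) in Ad-Yap1 WT and -0.23 ± 0.06 (adjusted p = 0.00345) in Ad-Yap1 shRNA, and with the length trend removed these values were -0.02 and 0.39. Rps4y2, paired here with Rps4x, stood at 1.70% ± 0.11 of its pair in Ad-Yap1 WT, 2.36% ± 0.22 in Ad-Yap1 shRNA and 2.12% ± 0.12 in Ad-GFP (adjusted exact permutation p = 0.00804). It had 17.0, 14.1 and 14.6 CPM in Ad-Yap1 WT, 13.4, 17.9 and 15.9 in Ad-Yap1 shRNA and 20.6, 21.8 and 21.9 in Ad-GFP libraries. Both Yap1 groups lay below Ad-GFP, with a change in Ad-Yap1 WT of -0.49 ± 0.10 (adjusted p = 0.000954, edgeR), a call made under all 21 settings.

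Rpl22l1 over Rpl22 did not pass, with -1.83 ± 0.04 in Ad-Yap1 WT, -1.80 ± 0.06 in Ad-Yap1 shRNA and -1.86 ± 0.02 in Ad-GFP libraries (adjusted exact permutation p = 0.354), although the levels of both genes were lower in Ad-Yap1 shRNA in the count fit and higher with the length trend removed (0.22 for Rpl22 and 0.17 for Rpl22l1). Rpl10l over Rpl10 was -6.98 ± 0.19 in Ad-Yap1 WT, -6.56 ± 0.18 in Ad-Yap1 shRNA and -7.10 ± 0.08 in Ad-GFP (adjusted exact permutation p = 0.0321), and Rps10l1 over Rps10 was -4.12 ± 0.11 in Ad-Yap1 WT, -4.29 ± 0.26 in Ad-Yap1 shRNA and -3.80 ± 0.13 in Ad-GFP (adjusted exact permutation p = 0.0429). Leaving out 1 library took the pair of Rpl10l past 0.05 except without Ad-Yap1 WT replicate 1 or 2 (range 0.0321 to 0.0964), and that of Rps10l1 except without Ad-Yap1 shRNA replicate 2 (range 0.00804 to 0.198). RefSeq lists Rps10l1 as a pseudogene.

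**Figure D5:**
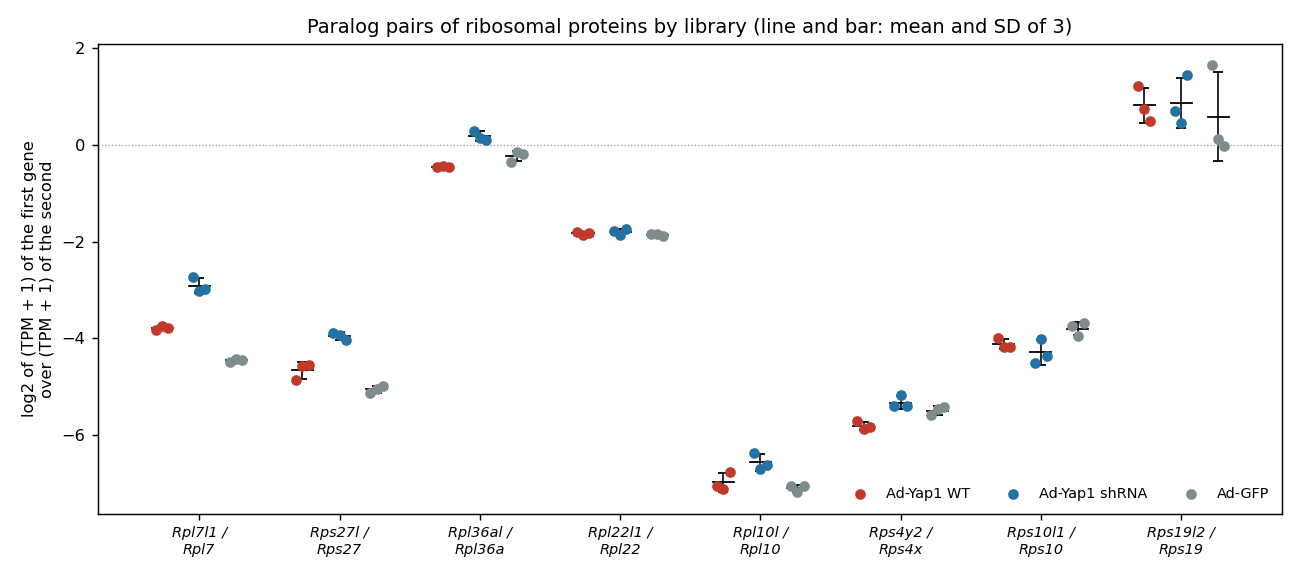
Log2 ratio of TPM + 1 of the second gene over the usual gene for 8 paralog pairs (vertical axis), one point per library, with the mean and SD of 3 libraries for Ad-Yap1 WT, Ad-Yap1 shRNA and Ad-GFP from left to right in each pair. Rpl7l1 and Rps27l are relatively highest in Ad-Yap1 shRNA, Rpl22l1 over Rpl22 lies at -1.80 to -1.86 in group means, and the pair Rps19l2 and Rps19 varies within groups.

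In the remaining pairs the split between the lines varied within groups. Rps18l1 had 0, 0 and 2.19 expected counts in Ad-Yap1 WT, 660.56, 0 and 495.6 in Ad-Yap1 shRNA and 301.04, 0 and 0 in Ad-GFP libraries, so its calls enter the counts above but are not described further. The sum of Rps18 and Rps18l1 was 591 to 611 CPM in Ad-Yap1 WT, 519 to 586 in Ad-Yap1 shRNA and 598 to 630.3 in Ad-GFP libraries. Rps19l2 and Rps19 also varied between replicates, with 303 to 458 and 130.4 to 274 CPM among the Ad-GFP libraries, while their sum ranged over 561 to 612 in Ad-Yap1 WT, 578 to 610 in Ad-Yap1 shRNA and 575 to 613 in Ad-GFP libraries. S19 is the protein most often altered in Diamond-Blackfan anaemia. The gene identifier of the line named Rps19l2 is that of Rps19 in RefSeq, and the line named Rps9l1 carries the identifier of Rps9.

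Copies bear on the family as a whole. A further 83 lines outside the rule are described as copies of ribosomal proteins, 77 of them of a member, and together they held 2.49% ± 0.09 of TPM in Ad-Yap1 WT, 2.14% ± 0.13 in Ad-Yap1 shRNA and 2.32% ± 0.09 in Ad-GFP libraries. Of the 86 members, 35 had counts that were not whole (tolerance 0.005), as when a read is shared between lines. Among the 50 tested members with whole counts only, 4 were higher and 8 lower in Ad-Yap1 WT and 6 higher and 30 lower in Ad-Yap1 shRNA against Ad-GFP, before any correction for length. Of all genes, 32.0% were higher and 31.8% lower in Ad-Yap1 WT, and 39.2% and 39.1% in Ad-Yap1 shRNA. Rpl35a, which was higher in Ad-Yap1 WT in the count fit with 0.37 ± 0.12 (adjusted p = 0.0156, edgeR), turned to -0.11 (adjusted p = 0.429) when its copy was added. Rps20, named after its values were seen, went there from 0.20 (adjusted p = 0.0184, edgeR) to 0.05 (adjusted p = 0.438) when its copies were added.

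The windows at the gene starts were set beside the changes. In Ad-Yap1 shRNA against Ad-GFP, 4 of 46 tested members with a run were higher and 27 lower, with a median of -0.28, and 2 of 18 without a run were higher and 8 lower, with a median of -0.02, against 39.2% of all genes called higher and 39.1% lower. With a run, 2 were higher and 8 lower in Ad-Yap1 WT against Ad-GFP (median -0.05), and 2 without a run were higher (median 0.05), against 32.0% of all genes called higher and 31.8% lower. These are counts with no test, and the members with and without a run were not matched for length. Those without a run include Rps2, Rpl7a, Rplp2 and Rps3, whose windows open with a pyrimidine stretch.

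Genes that act with the ribosome but fall outside the rule were counted too. The ribosomal or ribosome-bound proteins Rack1, Rpsa and Fau had log2 values of 0.04, 0.09 and -0.03 in Ad-Yap1 WT against Ad-GFP, none past the test. In Ad-Yap1 shRNA against Ad-GFP, 2 of the 3 were higher and 1 lower, where 39.2% of all genes were called higher and 39.1% lower. Rack1, the signalling scaffold of the small subunit, had 1211, 1309.6 and 1262 CPM in Ad-Yap1 WT, 1493, 1545 and 1562 in Ad-Yap1 shRNA and 1197, 1255 and 1234 in Ad-GFP libraries, a rise of 0.32 ± 0.05 (adjusted p = 8.19e-05, edgeR) in Ad-Yap1 shRNA. Fau, made as a fusion of a ubiquitin-like protein with S30, had -0.31 ± 0.06 (adjusted p = 0.000179, edgeR) there, which turned to 0.30 with the length trend removed.

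Of 16 other messages with a TOP tract, 7 were higher and 2 lower in Ad-Yap1 WT and 9 higher and 1 lower in Ad-Yap1 shRNA against Ad-GFP, with medians of 0.07 and 0.16. Of all genes, 32.0% were called higher and 31.8% lower in Ad-Yap1 WT, and 39.2% and 39.1% in Ad-Yap1 shRNA. Pabpc1, the poly(A)-binding protein, had 1121, 1195 and 1136 CPM in Ad-Yap1 WT, 1765, 1854 and 1816 in Ad-Yap1 shRNA and 788, 824 and 817 in Ad-GFP libraries. On the log2 scale it rose by 0.51 ± 0.05 in Ad-Yap1 WT (adjusted p = 1.97e-06, edgeR) and 1.16 ± 0.05 in Ad-Yap1 shRNA (adjusted p = 3.19e-10). In Ad-Yap1 shRNA the nucleolar chaperone Npm1 rose by 1.28, the histone chaperone Nap1l1 by 0.82 and the initiation factor Eif4b by 0.96. The messages of these 4 genes are longer than the median member, at 0.462 to 1.54 times the median length of all genes.

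Of 17 genes of mTORC1 and of cap-dependent initiation, 9 were higher and 3 lower in Ad-Yap1 WT and 11 higher and 5 lower in Ad-Yap1 shRNA against Ad-GFP, with medians of 0.17 and 0.43, against the same shares of all genes (32.0% and 31.8% in Ad-Yap1 WT, 39.2% and 39.1% in Ad-Yap1 shRNA). Larp1, which binds the cap and the TOP tract, had 261, 273 and 265 CPM in Ad-Yap1 WT, 408, 399 and 395 in Ad-Yap1 shRNA and 235, 213 and 216 in Ad-GFP libraries, a rise of 0.27 ± 0.05 in Ad-Yap1 WT (adjusted p = 0.00052, edgeR) and 0.86 ± 0.05 in Ad-Yap1 shRNA (adjusted p = 5.79e-09). In Ad-Yap1 shRNA, Rheb, the GTPase that activates mTORC1, rose by 0.84, the cap-binding factor Eif4e by 0.72 and the helicase Eif4a1 by 0.76. Among 5 chaperones that escort ribosomal proteins, 2 were higher in Ad-Yap1 WT and 4 higher and 1 lower in Ad-Yap1 shRNA. Grwd1, a chaperone of L3, had 29.2, 34.2 and 31.0 CPM in Ad-Yap1 WT, 48.1, 42.0 and 43.2 in Ad-Yap1 shRNA and 16.8, 16.3 and 19.0 in Ad-GFP libraries, a rise of 0.86 ± 0.09 in Ad-Yap1 WT (adjusted p = 2.51e-06, edgeR) and 1.35 ± 0.09 in Ad-Yap1 shRNA (adjusted p = 1.57e-08). The 3 groups did not overlap. Heatr3, the importer of L5, rose by 0.39 (adjusted p = 0.000448, edgeR) in Ad-Yap1 WT and 0.57 (adjusted p = 1.95e-05) in Ad-Yap1 shRNA. Pdcd2, a chaperone of S2, had 0.15 ± 0.10 (adjusted p = 0.229, edgeR) in Ad-Yap1 WT and rose by 0.68 ± 0.11 (adjusted p = 6.39e-05) in Ad-Yap1 shRNA. Its relative Pdcd2l had -0.15 ± 0.12 (adjusted p = 0.313, edgeR) in Ad-Yap1 WT and 0.31 ± 0.13 (adjusted p = 0.047) in Ad-Yap1 shRNA. The last call was lost in edgeR with upper quartile scaling (adjusted p = 0.262) and with no count filter (adjusted p = 0.155). It was lost too with the replicate number as a block (adjusted p = 0.0647), with libraries thinned to equal depth (adjusted p = 0.105) and in DESeq2 (adjusted p = 0.072). The same held without replicate 1 or 3 of Ad-Yap1 WT, replicate 1 or 3 of Ad-Yap1 shRNA or replicate 2 or 3 of Ad-GFP (highest adjusted p = 0.162).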

How the data were processed

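Polyadenylated RNA selected with oligo(dT) was sequenced on the BGISEQ-500. The submitters' processing notes name HISAT2, Bowtie2, RSEM 1.3.1, DESeq2 1.4.5 and the build rn6, without saying what each did, and the strand setting is not given in the sources used here. The authors deposited estimated counts (expected counts) per gene, with reads shared between genes split into fractions, and TPM values, which sum to 1000000 in each library.

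Expected counts were rounded, filtered with filterByExpr and scaled by TMM, and 13708 genes were fitted in edgeR 4.0.16 by the quasi-likelihood test with the 3 groups over all 9 libraries. Benjamini-Hochberg adjustment ran over all genes, and a call is an adjusted p under 0.05. CPM are TMM-scaled. SE is the size of the log2 fold change over the square root of F. Length is the ratio of expected count to TPM, relative to the library median. The alternatives used limma 3.58.1 and DESeq2 1.42.0, and scripts were tested on simulated data. Paralog ratios used log2 of TPM + 1. By rule, the text names both genes of each paralog pair, the stalk proteins, the 4 called members with the largest positive and the 4 with the largest negative change in each comparison, the 3 highest and 3 lowest members in TPM, 6 members with known other roles, and up to 4 genes of each list with the lowest p. Members named outside the rule are marked as such, and 1 gene of the lists is not reported here.

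The members and lists were chosen with earlier results of these data known. The motifs, the sequence windows, matching by gene identifier, the merging of copies, thinning to equal depth, and counting a value as reversed where its main value was called were chosen after seeing the data. Counting error sets the precision at these depths only in part, since replicates differed by more than counting noise.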

Additional observations from a re-analysis of the deposited data

How the results depend on the processing

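The counts of members called and their medians moved most with the treatment of transcript length and with scaling. In Ad-Yap1 WT against Ad-GFP, RLE scaling gave 7 higher and 7 lower, library size alone 28 higher and 4 lower with a median of 0.10, no count filter 19 lower with -0.077, TPM + 1 gave 42 higher and 3 lower with 0.14, TPM + 0.1 gave 43 and 3 with 0.14, and removing the length trend 67 and 2 with 0.24. In Ad-Yap1 shRNA against Ad-GFP, upper quartile scaling gave 5 higher and 63 lower with a median of -0.35, no count filter 7 higher and 56 lower with -0.27, TPM + 1 and TPM + 0.1 each 31 higher with 0.012 and 0.013, and the length trend removed 58 higher and 5 lower with 0.28. In Ad-Yap1 WT against Ad-Yap1 shRNA, upper quartile scaling gave 61 higher and 2 lower with 0.32, library size alone 60 higher and 3 lower with 0.30, no count filter 48 higher and 5 lower, the fit on the 6 libraries alone 4 lower, and the length trend removed 14 higher and 30 lower with -0.075. The cause was not tested. Library size alone moved the median of all genes by 0.14 in Ad-Yap1 WT, and upper quartile scaling by -0.15 in Ad-Yap1 shRNA, against Ad-GFP.

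With the length trend removed, 7 of the 11 lower members in Ad-Yap1 WT and 32 of the 45 in Ad-Yap1 shRNA against Ad-GFP changed sign, as did 10 of the 44 higher members in Ad-Yap1 WT against Ad-Yap1 shRNA. Among the genes named by rule, the called values that changed sign were, in Ad-Yap1 WT against Ad-GFP, Rpl21 (0.018 on either TPM scale, 0.14 without the length trend), Rps27 (0.00027 with TPM + 1, 0.00028 with TPM + 0.1 and 0.22), Rps29 (0.11 without the length trend) and Rpl35a (-0.11 with copies merged). In Ad-Yap1 shRNA against Ad-GFP, removing the length trend gave Fau 0.30, Rpl10 0.049, Rpl11 0.27, Rpl13a 0.0089, Rpl22 0.22, Rpl22l1 0.17, Rpl36al 0.39, Rpl41 0.013, Rpl7 0.022, Rps10l1 0.012, Rps18 0.28 and Rps29 0.030, and merging copies gave Rps27a 0.10. In Ad-Yap1 WT against Ad-Yap1 shRNA it gave Fau -0.013 and Rpl10 -0.0053.

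On expected counts the members' share was 5.87% in Ad-Yap1 WT, 4.95% in Ad-Yap1 shRNA and 5.39% in Ad-GFP, and the subunit ratio 1.52, 1.53 and 1.53. Without the second genes of pairs the share in Ad-Yap1 WT was 22.4% and the ratio in Ad-Yap1 shRNA 1.45. Leaving out 1 library gave 4 to 7 higher and 6 to 16 lower in Ad-Yap1 WT (median -0.05 to -0.02) and 6 to 10 higher and 43 to 50 lower in Ad-Yap1 shRNA (-0.25 to -0.16) against Ad-GFP. It gave 39 to 46 higher and 4 to 11 lower in Ad-Yap1 WT against Ad-Yap1 shRNA (0.13 to 0.23). The lowest counts, 6 or 7 lower in Ad-Yap1 WT, came without Ad-Yap1 WT replicate 2 or 3 or Ad-GFP replicate 2 or 3, and 4 or 5 lower in Ad-Yap1 WT against Ad-Yap1 shRNA came without Ad-Yap1 WT replicate 1 or Ad-Yap1 shRNA replicate 2 or 3. The adjusted exact permutation p ranged from 0.0321 to 0.0964 for Rpl10l over Rpl10 and from 0.00804 to 0.198 for Rps10l1 over Rps10. Replicate numbers did not pair the libraries (correlations of -0.031 to 0.094), and with the replicate number as a block 7 were higher and 14 lower in Ad-Yap1 WT, 9 and 47 in Ad-Yap1 shRNA, and 46 and 9 between them.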
